A study of Homo sapiens with 14 samples.

Results

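The genes described here were 9 established targets of the transcription factor Nrf2: HMOX1, NQO1, GCLC, GCLM, TXNRD1, SRXN1, SLC7A11, OSGIN1 and PRDX1. They were taken by name from the 20033 protein-coding genes of GENCODE release 44, and the binding of KLF4 at them was read from lists of ChIP-seq peaks. A peak was counted for a gene when its summit lay between 10 kb upstream of the start of the gene record and 2 kb past its end. On this rule 8 of the 9 genes had a KLF4 peak in at least 1 library, and SLC7A11 had none.

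Nrf2 is held in the cytoplasm by Keap1, which marks it for destruction. Oxidants and trivalent arsenic modify cysteines of Keap1, and the Nrf2 that escapes enters the nucleus, pairs with a small Maf protein and binds antioxidant response elements (AREs) beside genes for glutathione synthesis, thioredoxin recycling, and heme and quinone detoxification. KLF4 is a zinc-finger factor of the Krüppel-like family that binds CACCC and GC-rich sequences and is best known for its part in pluripotency and epithelial differentiation.

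The study asked how KLF4 binding responds to arsenite (As3+) with and without Nrf2. Its cells were BEAS-2B, an immortalized line of human bronchial epithelium, either wild type for Nrf2 (WT) or with Nrf2 knocked out by CRISPR-Cas9 guides to exon 2 (Nrf2 KO), and each genotype was left untreated (control) or given 1 µM As3+ for 6 h. KLF4 was immunoprecipitated in 4 libraries, 1 per condition: WT control, WT As3+, Nrf2 KO control and Nrf2 KO As3+. According to the paper, colonies from the guide transfections without detectable Nrf2 protein were classed as knockout, and those that expressed Nrf2 as WT. How many colonies supplied the chromatin is not given in the sources used here. With 1 library per condition no difference between conditions could be tested. Peak lists hold no expression values, so the epithelial identity of the cells and the knockout could not be checked in them, nor could the labels of the libraries or the depth to which each was sequenced or sampled.

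The libraries differed widely before any gene was considered. The lists held 751 peaks in WT control, 29870 in WT As3+, 76545 in Nrf2 KO control and 130 in Nrf2 KO As3+. The lowest number of fragments over any listed summit was 10 in WT control, 5 in WT As3+, 4 in Nrf2 KO control and 10 in Nrf2 KO As3+, and the lowest local background was 1.90, 0.757, 0.491 and 1.64 fragments in the same order. Of the peaks at the 9 genes, 3 of the 17 in WT As3+ and 19 of the 31 in Nrf2 KO control lay over fewer than 10 fragments. Over all peaks the median was 10 fragments in WT As3+ and 7 in Nrf2 KO control. The part of these differences between libraries in the results below was not tested.

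The sequences that follow show where KLF4 peaks met the letters that Nrf2 and KLF proteins are known to bind. They are reference sequence of GRCh38, 5′ to 3′ on the strand of the gene, and capitals mark 4 kinds of words searched on both strands: the KLF words CCACACCC and CCACGCCC, the GC box CCCCGCCCC, the AP-1 words TGACTCA and TGAGTCA, and the ARE core TGACNNNGC. An ARE core with the letters TGACTCAGC contains an AP-1 word. OSGIN1 is shown because its highest WT As3+ peak held a KLF word, and PRDX1 because its highest WT As3+ peak held an ARE core, which the WT control summit places near the center of the sequence. The others were chosen by hand after their values were seen. Further WT As3+ peaks, at the start of TXNRD1 and 4063 bp upstream of HMOX1, are not printed. These had an ARE core in the 200 bp around the summit, for HMOX1 just past the edge of the interval.
HMOX1, first 130 bp of the distal WT As3+ interval, chr22:35372035-35372164, plus strand: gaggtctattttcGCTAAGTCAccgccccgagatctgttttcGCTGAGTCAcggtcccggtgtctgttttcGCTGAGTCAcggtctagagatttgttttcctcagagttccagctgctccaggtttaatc
GCLC, upstream WT As3+ summit, chr6:53548207-53548333, minus strand: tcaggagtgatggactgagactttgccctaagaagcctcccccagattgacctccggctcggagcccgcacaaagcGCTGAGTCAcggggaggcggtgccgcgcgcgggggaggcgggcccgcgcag
GCLM, proximal WT As3+ summit, chr1:93909502-93909641, minus strand: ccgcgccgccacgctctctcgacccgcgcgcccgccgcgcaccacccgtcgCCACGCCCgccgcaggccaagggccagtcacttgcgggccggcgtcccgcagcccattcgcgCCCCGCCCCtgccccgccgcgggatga
SRXN1, promoter WT As3+ summit, chr20:653347-653486, minus strand: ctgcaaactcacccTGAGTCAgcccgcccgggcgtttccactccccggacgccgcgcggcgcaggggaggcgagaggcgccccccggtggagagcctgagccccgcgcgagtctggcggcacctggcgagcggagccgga
PRDX1, WT control summit, chr1:45521946-45522085, minus strand: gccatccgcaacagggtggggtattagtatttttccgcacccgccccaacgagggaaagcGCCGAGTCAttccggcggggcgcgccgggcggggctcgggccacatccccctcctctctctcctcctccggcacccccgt
OSGIN1, WT As3+ summit, chr16:83953671-83953810, plus strand: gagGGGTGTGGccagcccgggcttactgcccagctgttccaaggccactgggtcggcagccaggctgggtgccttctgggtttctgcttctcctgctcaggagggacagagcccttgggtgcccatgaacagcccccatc

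Read on the opposite strand, the words GCTGAGTCA of HMOX1 and GCLC are TGACTCAGC, the form in which an ARE core and an AP-1 word coincide. The HMOX1 stretch holds 3 ARE cores in a row, each preceded by the letters ttttc, and the GCLC stretch holds 1 close to the summit. A second ARE core of GCLC, centered 3107 bp upstream of the start site, is cut off at the end of the printed stretch. In SRXN1 the AP-1 word TGAGTCA is followed by gc, so that it matches the element TGANTCAGC described below although it is not an ARE core in the form searched.

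After As3+ the WT list held peaks at 8 of the 9 genes, against 1 in WT control. The direction was opposite in Nrf2 KO cells, with peaks at 8 genes in the control and at none after As3+. PRDX1 was the gene with a peak in WT control, and HMOX1, NQO1, GCLC, GCLM, TXNRD1, SRXN1 and OSGIN1 were the 7 that had a peak in WT As3+ and none in WT control. The same 8 genes had a peak in WT As3+ and in Nrf2 KO control.

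These counts followed the size of the lists over all genes. A peak in the same window was found for 2.51% of protein-coding genes in WT control, 66.5% in WT As3+, 81.0% in Nrf2 KO control and 0.439% in Nrf2 KO As3+, where the 9 genes gave 11.1%, 88.9%, 88.9% and 0%. Each of the 9 genes weighs 11.1 percentage points, so the Nrf2 KO control share is within 1 gene of the background. Of all genes, 64.0% had a peak in WT As3+ and none in WT control, 80.6% had one in Nrf2 KO control and none in Nrf2 KO As3+, and 64.0% had one in both WT As3+ and Nrf2 KO control, beside 7, 8 and 8 of the 9. The share of the 9 genes that lost their peaks after As3+ in the knockout was likewise within 1 gene of the share over all genes.

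Close to the start site the 9 genes stood further from the background, as the plot of shares of genes by library shows. A summit lay within 1 kb of the canonical start site in 1, 8, 8 and 0 of the 9 genes in WT control, WT As3+, Nrf2 KO control and Nrf2 KO As3+. The shares over all genes were 0.694%, 49.3%, 63.6% and 0.180%. With only peaks of a −log10 q of 5 or more, the window count fell to 5 genes in WT As3+ (38.2% of all genes) and 6 in Nrf2 KO control (51.0%). GCLC, GCLM and OSGIN1 were in both of these sets, HMOX1 and PRDX1 in the WT As3+ set, and NQO1, TXNRD1 and SRXN1 in the Nrf2 KO control set.

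**Figure D1:**
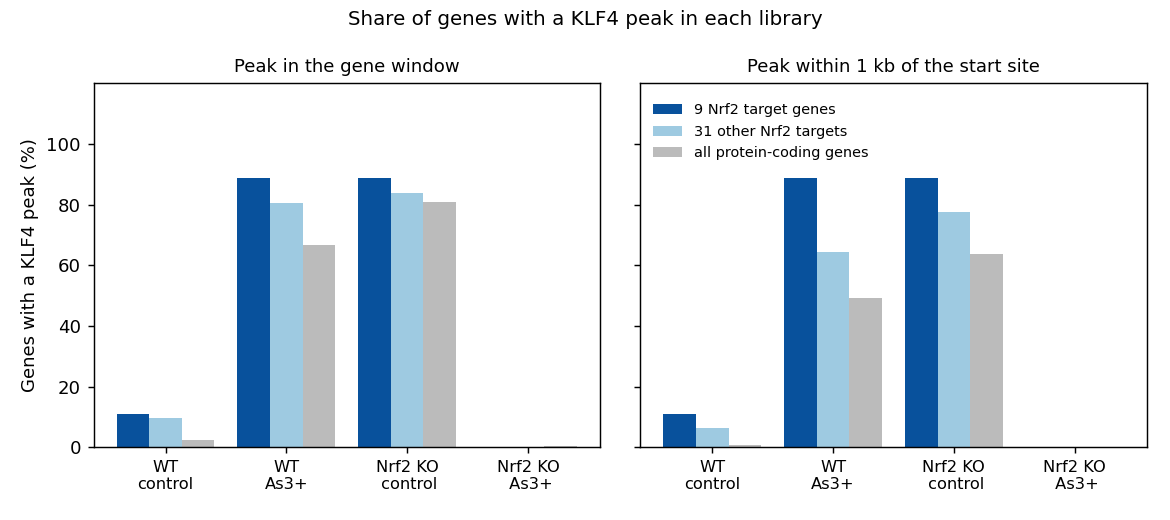
Percentage of genes with a KLF4 peak in each of the 4 libraries, in the gene window (left) and within 1 kb of the canonical start site (right); bars are the 9 Nrf2 target genes, 31 other Nrf2 targets and all 20033 protein-coding genes. Within 1 kb of the start site the 9 genes reached 88.9% in WT As3+ and in Nrf2 KO control, where all genes reached 49.3% and 63.6%.

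A larger share of the 17 peaks of WT As3+ than of the 31 of Nrf2 KO control lay at the starts of the genes, as in the whole lists. Of the 17, 11 lay within 1 kb of the gene's own canonical start site and 6 further away. Of the 31, 9 lay within 1 kb and 22 further away, 8 of all the Nrf2 KO control peaks being in the window of TXNRD1 alone. Counted to any protein-coding start site, 70.6% of the WT As3+ peaks and 32.3% of the Nrf2 KO control peaks at the 9 genes lay within 1 kb, against 39.2% and 21.7% of all peaks of those libraries. With a −log10 q of 5 or more, 5 of 6 WT As3+ and 6 of 9 Nrf2 KO control peaks lay within 1 kb of the gene's own start. Shares over all peaks at this limit were not counted. Per 10 kb of window the 9 genes held 0.297 peaks in WT As3+ and 0.542 in Nrf2 KO control, against 0.193 and 0.450 over the windows of all protein-coding genes. The map of peaks around the start sites shows both patterns.

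**Figure D2:**
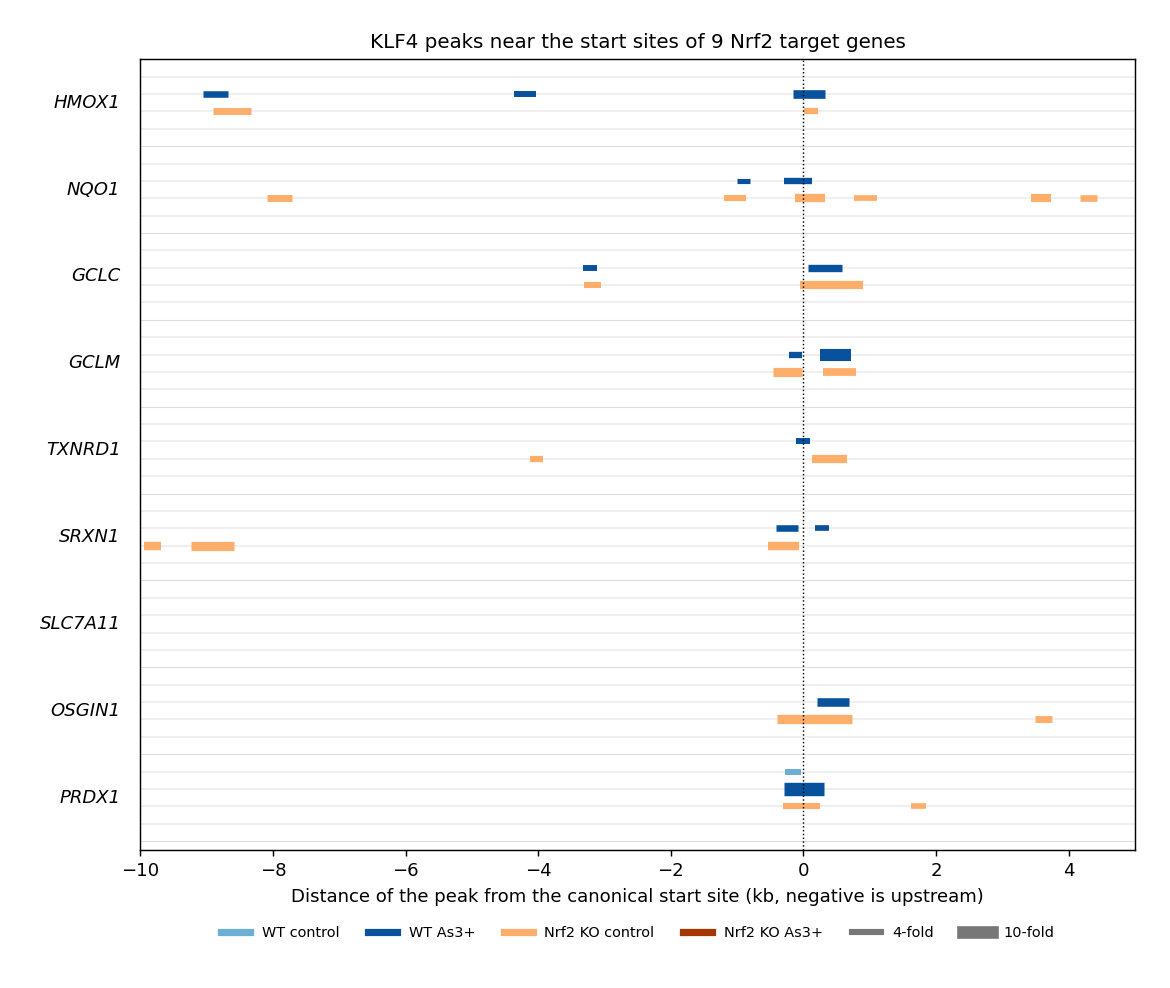
KLF4 peaks within 10 kb upstream and 5 kb downstream of the canonical start site (dotted line) of each of the 9 genes; each gene has 4 tracks, 1 per library in the order of the legend, and the thickness of a bar is the fold enrichment at its summit. The Nrf2 KO As3+ tracks are empty, the WT control track is empty but for PRDX1, and the tracks of SLC7A11 are empty in all 4 libraries.

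PRDX1, a peroxiredoxin that reduces hydrogen peroxide with electrons from thioredoxin, had the highest WT As3+ peak of the 9 genes and the only WT control peak. In WT control the summit lay 132 bp upstream of the canonical start site (chr1:45521923-45522156), with 31 fragments (95% exact Poisson interval 21.1 to 44), a local background of 7.26 fragments, a fold enrichment of 3.87 and a −log10 p of 10.9. In WT As3+ it lay 63 bp upstream (chr1:45521569-45522177), with 37 fragments (26.1 to 51.0) over a background of 2.54, a fold enrichment of 10.7 and a −log10 p of 30.4. In Nrf2 KO control it lay 116 bp upstream (chr1:45521632-45522194), with 11 fragments (5.49 to 19.7) over a background of 2.0 and a fold enrichment of 4.00. These intervals, like all given here, cover counting error only.

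The fragment intervals of PRDX1 in WT control and WT As3+ overlapped, and those in WT As3+ and Nrf2 KO control did not. Fragments were not scaled for depth, so here and below the overlap of such intervals is no test between libraries. The fold enrichments differed with the local background, which was higher in WT control. In the WT As3+ list 0.713% of peaks had a higher −log10 p than the PRDX1 promoter peak. All 3 intervals contained the same ARE core, centered 137 bp upstream of the start site and close to the WT control summit in the sequence printed above. A KLF word was not found in the 200 bp around any of these 3 summits.

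The window of PRDX1 also reached the start of AKR1A1, an aldo-keto reductase gene transcribed the other way. The WT As3+ summit there lay 50 bp from the AKR1A1 start site, with 19 fragments (11.4 to 29.7) and a fold enrichment of 6.34. The Nrf2 KO control summit lay 52 bp from it, with 10 fragments and a fold enrichment of 4.54, and was by −log10 p the highest of the PRDX1 window in that library. These peaks are nearer to AKR1A1 than to PRDX1, and were credited to PRDX1 by position only.

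SRXN1 encodes sulfiredoxin, which restores peroxiredoxins that have been over-oxidized. Its WT As3+ peaks were 217 bp upstream of the start site, with 11 fragments (5.49 to 19.7) and a fold enrichment of 4.39, and 327 bp downstream in intron 1, with 10 fragments and a fold enrichment of 3.57. The upstream summit recurred in Nrf2 KO control 2 bp away, with 12 fragments (6.20 to 21.0) and a fold enrichment of 6.12. The AP-1 word of the printed sequence lay 269 bp upstream of the start site and inside both intervals. Nrf2 KO control had a pair of further peaks 9043 and 9863 bp upstream, with fold enrichments of 6.77 and 6.13, that had no counterpart in WT As3+.

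TXNRD1, the cytosolic thioredoxin reductase that keeps thioredoxin reduced with NADPH, had 2 peaks in WT As3+ and 8 in Nrf2 KO control, and none of the 2 overlapped any of the 8. The WT As3+ summits were 15 bp upstream of the canonical start site, with 11 fragments (5.49 to 19.7) and a fold enrichment of 3.85, and 61539 bp downstream in intron 3, with 11 fragments and a fold enrichment of 5.11. The first held 2 ARE cores within the 200 bp around its summit, 95 and 4 bp upstream of the start site. The highest Nrf2 KO control summit was 311 bp downstream in intron 1, with 12 fragments (6.20 to 21.0) and a fold enrichment of 5.91. Its interval (chr12:104215913-104216436) began just past the end of the WT As3+ interval at the start site (chr12:104215674-104215873). With 12 and 11 fragments these edges rest on few reads. The other 7 lay between 4007 bp upstream and 86772 bp downstream, over 4 to 7 fragments.

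The start site that RefSeq gives for TXNRD1 lies 71253 bp downstream of the canonical one used here. Its promoter, from 250 bp before to 50 bp after the start, held a KLF word and an ARE core. The nearest KLF4 summit was 9714 bp away in WT As3+ and 8880 bp away in Nrf2 KO control.

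GCLC and GCLM encode the catalytic and the modifier subunit of glutamate-cysteine ligase, the enzyme of the rate-limiting step of glutathione synthesis. GCLM had the second highest WT As3+ peak of the 9 genes: the summit lay 391 bp downstream of the start site in the coding part of exon 1 (chr1:93908718-93909173), with 22 fragments (13.8 to 33.3), a fold enrichment of 9.49 and a −log10 p of 19.5, and 2.92% of the list was higher. A second WT As3+ peak lay 142 bp upstream with 12 fragments (6.20 to 21.0) and a fold enrichment of 4.17. In Nrf2 KO control the order of the pair was reversed. There the upstream peak, 292 bp from the start site, had 17 fragments (9.90 to 27.2) and a fold enrichment of 6.86, and the downstream one, at 478 bp, had 10 fragments (4.80 to 18.4) and a fold enrichment of 5.50. The fragment intervals of the paired peaks overlapped in both cases. The printed GCLM sequence holds the KLF word CCACGCCC and a GC box, both within 100 bp of the upstream WT As3+ summit. Outside the printed stretch, the upstream intervals of both libraries held an ARE core centered 30 bp upstream of the start site.

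GCLC had 2 peaks in WT As3+ and 5 in Nrf2 KO control. At the start site the WT As3+ summit lay 136 bp downstream in the 5′ UTR of exon 1 (chr6:53544513-53545031), with 14 fragments (7.65 to 23.5) and a fold enrichment of 5.13, and the Nrf2 KO control summit 499 bp downstream, with 13 fragments (6.92 to 22.2) and a fold enrichment of 5.90. The second WT As3+ peak lay 3163 bp upstream (chr6:53548213-53548428), with 13 fragments (6.92 to 22.2) and a fold enrichment of 3.79, 58 bp from another annotated start of GCLC. Its Nrf2 KO control counterpart was 3151 bp upstream, with 11 fragments (5.49 to 19.7) and a fold enrichment of 4.00. Both intervals held the TGACTCAGC element centered 3152 bp upstream, 11 bp from the WT As3+ summit and 1 bp from the Nrf2 KO control summit. No other element of this kind in the windows of the 9 genes lay as near to a KLF4 summit. Of the knockout libraries only Nrf2 KO control held this peak, since Nrf2 KO As3+ had no peak at GCLC.

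SLC7A11, the cystine transporter that supplies glutathione synthesis, had no peak within its 90253 bp window in any library. A gene without a peak in any of the 4 lists was no rarity, since 16.5% of protein-coding genes had none. The summit nearest to its start site was 189273 bp away in WT As3+, 189198 bp in Nrf2 KO control, 4166013 bp in WT control and 18341093 bp in Nrf2 KO As3+. A list of peaks holds no value for a place without a peak, so binding below the threshold of the lists is not known.

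HMOX1, heme oxygenase-1, which opens the heme ring and releases iron, had 3 peaks in WT As3+ and 2 in Nrf2 KO control. The highest WT As3+ summit lay 149 bp downstream of the start site in intron 1 (chr22:35380936-35381423), with 17 fragments (9.90 to 27.2), a fold enrichment of 6.32 and a −log10 p of 11.8. The Nrf2 KO control summit there was 7 bp away, with 8 fragments (3.45 to 15.8) and a fold enrichment of 4.09, and the fragment intervals overlapped. A WT As3+ peak 4063 bp upstream, with 9 fragments and a fold enrichment of 3.88, had no counterpart in Nrf2 KO control.

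The distal HMOX1 peak was found in both libraries, with its summit 8763 bp upstream in WT As3+ (11 fragments, 4.39-fold) and 8739 bp upstream in Nrf2 KO control (9 fragments, 4.71-fold). The summits were 24 bp apart and the intervals extended in opposite directions. The WT As3+ interval (chr22:35372035-35372417) ran upstream over the 3 ARE cores printed above, which lay 223, 252 and 281 bp from its summit. The Nrf2 KO control interval (chr22:35372197-35372759) ran downstream and began 83 bp short of the nearest of them. With 11 and 9 fragments the edges of these intervals rest on few reads, and the difference in extent was not tested.

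NQO1, a quinone reductase, had its highest WT As3+ peak 165 bp upstream of the start site (chr16:69726430-69726859), with 17 fragments (9.90 to 27.2) over a background of 3.27 and a fold enrichment of 4.21, and a second peak 840 bp upstream, with 9 fragments and a fold enrichment of 3.09. Nrf2 KO control had 6 peaks, the highest 175 bp downstream in intron 1 (chr16:69726241-69726690), with 15 fragments (8.40 to 24.7), a background of 1.65 and a fold enrichment of 6.04. The others lay between 7900 bp upstream and 4295 bp downstream. The single TGACTCAGC-type element of the NQO1 window, 451 bp upstream of the start site, fell between the peaks: 148 bp separated it from the nearest WT As3+ interval and 317 bp from the nearest Nrf2 KO control interval.

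OSGIN1, an oxidative stress-induced growth inhibitor, had 1 peak in WT As3+ and 2 in Nrf2 KO control. The WT As3+ summit lay 501 bp downstream in intron 1 (chr16:83953450-83953927), with 11 fragments (5.49 to 19.7), a background of 0.924 and a fold enrichment of 6.24. The Nrf2 KO control interval contained it whole but had its summit 210 bp upstream of the start site, with 12 fragments (6.20 to 21.0) and a fold enrichment of 6.94, the highest of the 9 genes in that library. The KLF word of the printed OSGIN1 sequence lay 437 bp downstream of the start site. The fragment plot sets the start-site peaks of the 9 genes side by side.

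**Figure D3:**
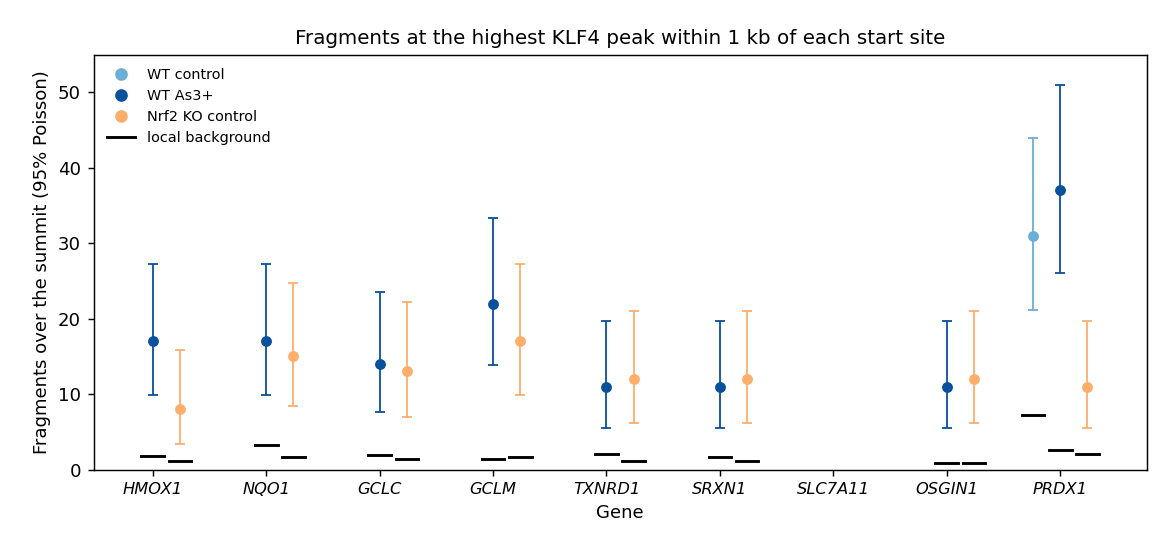
Fragments over the summit of the highest KLF4 peak within 1 kb of each canonical start site, with exact Poisson 95% intervals (bars) and the local background (black ticks); a missing point means that the library had no peak there. PRDX1 stands out in WT As3+ with 37 fragments, and for the 8 genes with a point in both libraries the WT As3+ and Nrf2 KO control intervals overlap in all but PRDX1. Fragments are not scaled for depth, so overlap is no test between libraries.

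Of the 17 WT As3+ peaks, 12 overlapped a Nrf2 KO control peak by at least 1 bp, or 70.6% of the WT As3+ peaks and 38.7% of the 31 Nrf2 KO control peaks. With a −log10 q of 5 or more in both lists, 2 of 6 WT As3+ peaks were shared, a share not counted over the whole lists. Without that limit the shares over the whole lists were 55.6% and 21.7%. Counting by distance to any protein-coding start site, 10 of the 12 WT As3+ peaks within 1 kb were shared (81.7% of all such peaks) and 2 of the 5 further away (38.8%), and 9 of the 10 Nrf2 KO control peaks within 1 kb (57.1%) and 3 of the 21 further away (11.9%). The 5 WT As3+ peaks that were not shared were the HMOX1 peak 4063 bp upstream, both TXNRD1 peaks, the SRXN1 intron 1 peak and a peak 26581 bp upstream of PRDX1. At the TXNRD1 start site the intervals of the 2 libraries lay side by side without overlapping.

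The summits of the 12 shared pairs were 2 to 711 bp apart, with a median of 70.0 bp. The fold enrichment was higher in WT As3+ at 4 of them, the PRDX1 promoter, the AKR1A1 start, GCLM exon 1 and the HMOX1 start, and higher in Nrf2 KO control at the other 8. Over all 17 WT As3+ peaks the fold ranged from 3.09 to 10.7 with a median of 4.39, and over the 31 Nrf2 KO control peaks from 3.01 to 6.94 with a median of 4.61. Fold enrichment is relative to the local background of its own library, so the pairs are given side by side and no ratio between libraries was formed. The split of 4 against 8 was not counted over all shared peaks, so it is not shown to be particular to these genes.

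**Figure D4:**
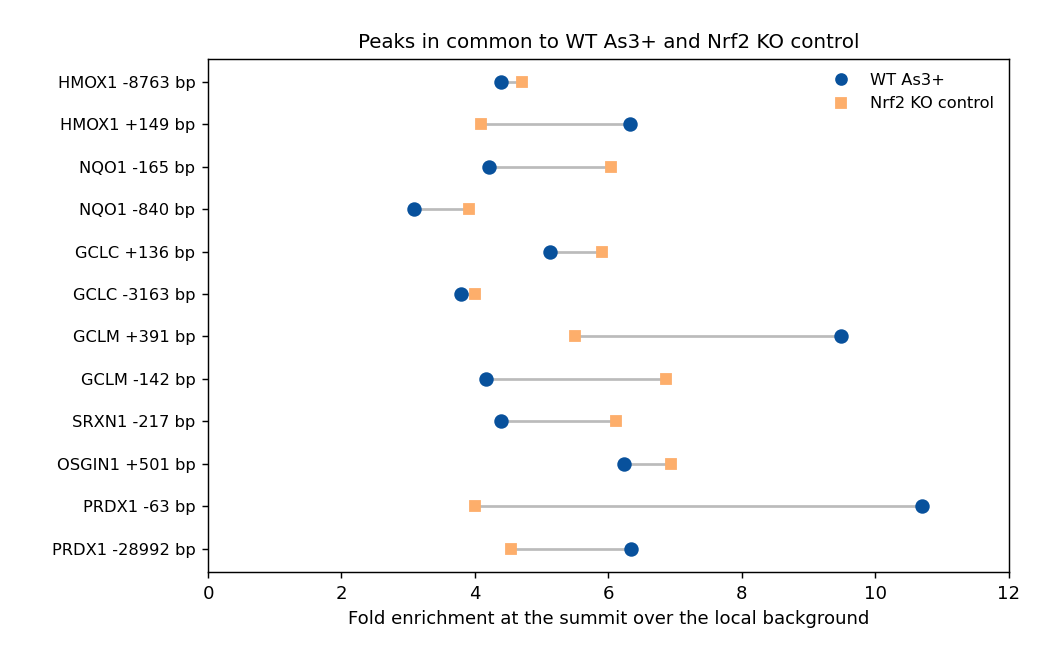
Fold enrichment at the summits of the 12 peaks that WT As3+ (circles) and Nrf2 KO control (squares) had in common, labelled by gene and by the position of the WT As3+ summit relative to the start site. The WT As3+ value was higher at 4 peaks, most of all at the PRDX1 promoter with 10.7 against 4.00, and the Nrf2 KO control value at 8. The same split over all shared peaks was not counted.

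The words were found in a minority of the peaks. In the 200 bp around the summit, 3 of the 17 WT As3+ peaks held a KLF word (17.6%, against 10.3% of all peaks of that library), 2 a GC box (11.8% against 7.76%), 2 an AP-1 word (11.8% against 4.33%) and 4 an ARE core (23.5% against 9.36%). In Nrf2 KO control 6 of the 31 held a KLF word (19.4% against 9.27%), 2 a GC box (6.45% against 4.61%), 3 an AP-1 word (9.68% against 2.54%) and 5 an ARE core (16.1% against 9.17%). In WT As3+ each peak weighs 5.88 percentage points. A word is a description of the letters and does not show that a protein was bound to them.

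The genes with an ARE core at a WT As3+ summit were HMOX1 (the peak 4063 bp upstream, with the core just past the edge of the interval), GCLC, TXNRD1 and PRDX1, and those at a Nrf2 KO control summit were NQO1, GCLC, TXNRD1 and PRDX1. Of the 9 genes, 6 had an entry among the 35116 RefSeq promoters (GRCh38.p14, 250 bp before to 50 bp after the start). A KLF word was found in GCLM and TXNRD1 (8.05% of all promoters), a GC box in GCLM (15.7%), an AP-1 word in OSGIN1 (4.95%) and an ARE core in GCLM and TXNRD1 (13.3%).

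Not all of these words stood in unique sequence. For each word the 24 bp around it was counted in the whole genome on both strands. At the WT As3+ peak in intron 3 of TXNRD1 the KLF word stands in 24 bp that occur 1976 times. Of the 6 Nrf2 KO control peaks with a KLF word, 4 held it only in copied sequence, at NQO1 (399 copies) and at 3 TXNRD1 peaks (90, 1405 and 3094 copies). The ARE core of the NQO1 intron 1 peak 4295 bp downstream stood in 24 bp that occur 10395 times. All ARE cores of the WT As3+ summits, and the KLF words of GCLM and OSGIN1, stood in 24 bp that occur once. How reads with several equal matches were placed is not given beyond the default settings of the aligner, and its part in the intronic peaks of TXNRD1 and NQO1 was not tested.

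Another 9-letter element, TGANTCAGC, was searched through the whole windows after the peaks had been seen. It has more fixed letters than the ARE core but is not a subset of it. It covers the printed GCLC core, the SRXN1 and NQO1 sites and 2 of the 3 printed HMOX1 cores. Because sites inside peaks were known when it was chosen, the shares below are a description and no test. The windows of the 9 genes held 36 such elements, 10 of them in GCLC, 8 in HMOX1, 7 in TXNRD1, 5 in PRDX1, 3 in SLC7A11, 1 each in NQO1, SRXN1 and OSGIN1 and 0 in GCLM. A WT As3+ interval covered 4 of the 36 (11.1%): 2 distal sites of HMOX1 and 1 each of GCLC and SRXN1. A Nrf2 KO control interval covered 3 (8.33%), those of GCLC and SRXN1 and 1 in OSGIN1, 95 bp upstream of its start site. Of the 100854 such elements in the genome, 0.813% lay in a WT As3+ interval and 1.20% in a Nrf2 KO control interval. All 5 covered elements lay upstream of the canonical start of their gene, and the genome share is not matched for distance to a start site.

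**Figure D5:**
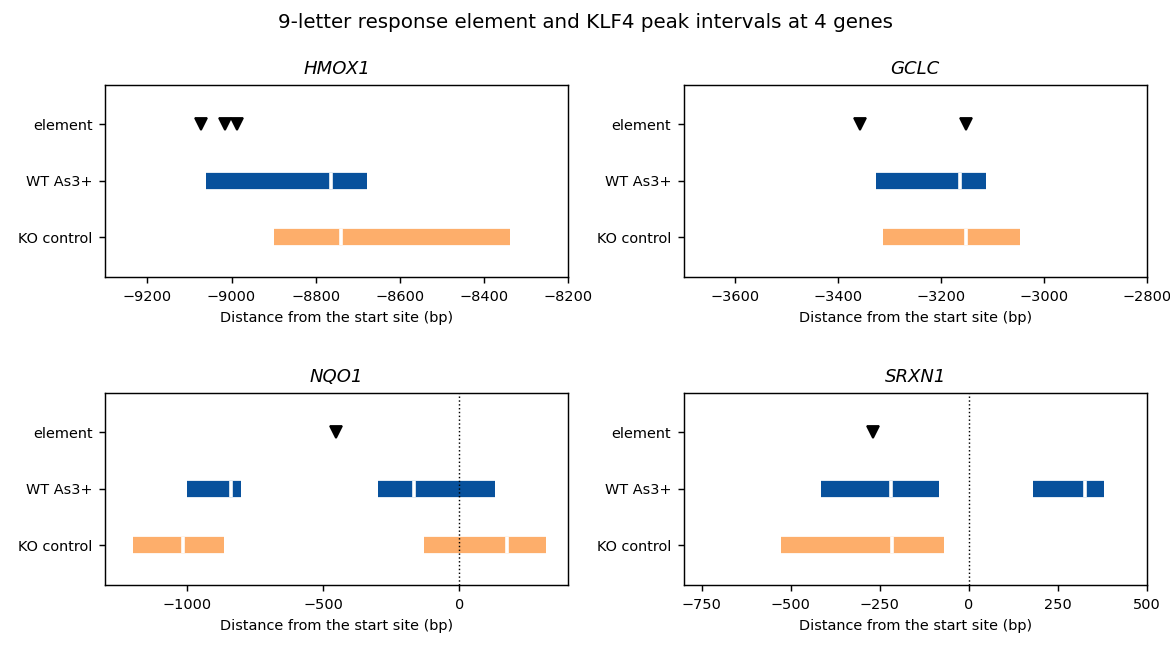
Positions of the TGANTCAGC element (triangles) and KLF4 peak intervals of WT As3+ and Nrf2 KO control (bars, with a white tick at the summit) relative to the canonical start site, in bp, at HMOX1, GCLC, NQO1 and SRXN1. Of the elements in the stretches plotted, that of SRXN1 and 1 of the 2 of GCLC lie in the intervals of both libraries, 2 of the distal HMOX1 elements lie in the WT As3+ interval alone, and the NQO1 element lies between peaks.

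For comparison, peaks were counted at 31 other genes from a list of Nrf2 targets. A peak in the window was found for 3 (9.68%) in WT control, 25 (80.6%) in WT As3+, 26 (83.9%) in Nrf2 KO control and 0 in Nrf2 KO As3+, and within 1 kb of the canonical start site for 2, 20 (64.5%), 24 (77.4%) and 0. In the window these shares were within 1 gene of those of the 9, and within 1 kb of the start, in the 3 libraries other than Nrf2 KO As3+, they lay between those of the 9 and those of all genes. No peak in any library was found for GPX2, a selenium-dependent glutathione peroxidase, AKR1B10, AKR1C1, AKR1C2 and AKR1C3, aldo-keto reductases, which thus resembled SLC7A11.

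Among those with high WT As3+ peaks, ABCC3, an exporter of conjugates, had its highest −log10 p in intron 1 (19.6, with a fold enrichment of 7.85) and a fold enrichment of 8.55 at 123 bp upstream of its start site. SLC48A1, a heme transporter, had a fold enrichment of 8.55 at 384 bp downstream of its start site. The highest WT As3+ peak of CBR1, a carbonyl reductase, lay closer to the start site of SETD4, at 69 bp. That of SQSTM1, the autophagy receptor p62, lay 13782 bp upstream of its canonical start site. It was 201 bp from another annotated start of SQSTM1 and 257 bp from the start site of MGAT4B. A further WT As3+ peak lay 152 bp upstream of the canonical SQSTM1 start, with a fold enrichment of 6.75.

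TXN, the thioredoxin that TXNRD1 reduces and PRDX1 uses, shared with PRDX1 a promoter peak in WT control. Its summit lay 308 bp upstream, with 19 fragments (11.4 to 29.7) and a fold enrichment of 4.66, and in WT As3+ 322 bp upstream, with 19 fragments and a fold enrichment of 8.81. The other WT control peaks of the list were at SLC48A1 (3.08-fold) and in intron 14 of ABCC1, a glutathione conjugate exporter (3.86-fold).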

How the data were processed

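ChIP was done by the authors on sonicated chromatin, and 75-nt reads were aligned with BWA at default settings. The paper names more than 1 genome build without saying which was used for KLF4, and the lists were read here as GRCh38/hg38. The peak caller is not given in the sources used here. The authors deposited 1 peak list per KLF4 library with a fold enrichment of each summit over its local background, with −log10 p and −log10 q values, and with a score that was not used. Depth in reads is not in the lists. The paper states that tag numbers were evened out by random sampling down to the smallest sample. Whether this came before the peaks were called is not given. Fragments and local background at a summit were recovered from the deposited fold and p, and given exact Poisson intervals. The fold was taken as fragments plus 1 over background plus 1, and p as a Poisson upper tail. The misfit was at most 0.000405 in −log10 p. With this added 1 the fold is lower than the plain ratio of the fragments to the background. The recovery of fragments, the gene windows, the overlaps and the word search were tested on simulated data and recovered 100% of what was planted.

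Genes and canonical starts came from GENCODE release 44 (GRCh38). Coordinates are 1-based. Peaks and words were counted with Python 3.11.15, SciPy 1.17.1 and pysam 0.24.0. All 9 genes were named with their highest peak per library and every WT control peak. Of 32 other Nrf2 targets 31 matched a protein-coding gene (TRIM16L did not), and the rule named those with the 5 highest WT As3+ −log10 p or a WT control peak, of which 1 gene, and 1 sequence that the rule chose, are not reported here. The genes and lists were chosen with earlier results of these data known, and the TGANTCAGC search and the genome copies were added after the peaks had been seen. Alternatives were a −log10 q of 5, other windows, other overlaps and other motif windows. Libraries of H3K4me1, H3K27Ac and input were not analysed here.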

Additional observations from a re-analysis of the deposited data

Results flagged for a closer look

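The response of the 9 genes to As3+ went in opposite directions in WT and Nrf2 KO cells: the number of genes with a KLF4 peak changed by 7 in the former and by -8 in the latter. The 8 genes HMOX1, NQO1, GCLC, GCLM, TXNRD1, SRXN1, OSGIN1 and PRDX1 each had more peaks after As3+ in WT cells and fewer after As3+ in Nrf2 KO cells, and SLC7A11 had none in either. Whether the labels of the knockout libraries are right, and whether the libraries were sampled to the same depth, could not be checked in the lists. The difference between the genotypes was not tested, since each condition had 1 library, and the same directions were seen over all protein-coding genes. The numbers of peaks in the whole lists moved the same way, from 751 to 29870 in WT cells and from 76545 to 130 in Nrf2 KO cells.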

How the results depend on the processing

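Of 73 alternative values, 58 stayed within 1.5 times the main count. These include every alternative for the counts of 1 in WT control and 0 in Nrf2 KO As3+, which had little room to move. The 15 that moved were all counts of WT As3+ or Nrf2 KO control. Where a −log10 q of 5 or more was asked for, the genes with a peak in WT As3+ were 5, the peaks at the 9 genes were 6 in WT As3+ and 9 in Nrf2 KO control, and 2 peaks were shared by these libraries. Within 1 kb of the canonical start there were 11 and 9 peaks. In 100 bp around the summit, 1 WT As3+ peak held a KLF word, 0 a GC box, 1 an AP-1 word and 2 an ARE core, and in Nrf2 KO control 0 held a GC box, 1 an AP-1 word and 3 an ARE core. Over whole intervals 13 Nrf2 KO control peaks held a KLF word and 4 a GC box. Fewer peaks or fewer bases are counted in the first of these settings, and more bases in the last. No paired analysis was possible because each condition had 1 library, and for the same reason no replicate could be left out. Fragments over the summits at the 9 genes numbered 4 to 37, which limits the precision of every fold enrichment given.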
